A study of Mus musculus with 6 samples.

Results

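Olfactory receptors are G protein-coupled receptors that detect odorants, and their genes form one of the largest families of the mouse genome. Of 962 array probes with an olfactory receptor (Olfr) gene name, 128 probes (123 gene names) were well above background on all 6 arrays of mouse testis. These 128 probes are 13.3% of the receptor probes, while 65.0% of all 41174 gene probes reached the same mark. The members were chosen by this detection mark alone, so that they gave signal in testis is the rule and not a finding. Their levels below are a description. The comparison of genotypes did not enter the rule.

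The samples were testes of male mice, aged 6 to 8 weeks, of a mixed 129Sv and C57BL/6 background. The 3 control mice were wild type (WT), and the other 3 (Prss54KO) were knockouts of Prss54, a gene of the serine protease family. Each mouse was measured on its own 1-colour array, and the labels do not describe the Prss54 allele or name litters. In the chosen comparison slide was not in the model, so the p-values measure the spread between these animals and between their slides. The arrays stood on 3 slides: slide 3 carried WT replicates 1 and 2, slide 2 carried WT replicate 3 with Prss54KO replicates 1 and 2, and slide 1 carried Prss54KO replicate 3.

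In the nose, each olfactory sensory neuron expresses a single receptor gene, chosen from a large family whose genes lie in tandem clusters on many chromosomes. An odorant that binds the receptor activates the olfactory G protein alpha subunit (Gnal), adenylyl cyclase 3 (Adcy3) and a cyclic nucleotide-gated channel of Cnga2, Cnga4 and Cngb1. Class I receptors resemble those of fish and lie together on mouse chromosome 7, and the remaining receptors are class II. Transcripts of some receptors are known in testis and sperm, where they have been studied as possible chemosensors.

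The array reads each receptor through a DNA probe of 60 bases, and how far the probe is its own decides which receptor a signal stands for. The probes below are shown because the results turn on them. Olfr571 gave the highest signal, Olfr114 and Olfr761 stand for the chromosome 17 cluster, Olfr569 differed most in a single mouse, and Olfr279 had a bright and a dim probe. Olfr113 with Olfr127 and Olfr441 with Olfr444 are pairs that share a run of bases. Capitals mark the longest run that also occurs in a probe for another receptor gene, and in Olfr444 the run shared with Olfr441. The second Olfr279 probe was not searched and has no capitals. The sequences are the array's own.
Olfr571: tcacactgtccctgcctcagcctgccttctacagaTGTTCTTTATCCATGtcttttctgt
Olfr114: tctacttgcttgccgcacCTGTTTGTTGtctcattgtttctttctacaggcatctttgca
Olfr761: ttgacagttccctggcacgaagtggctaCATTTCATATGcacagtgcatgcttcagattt
Olfr569: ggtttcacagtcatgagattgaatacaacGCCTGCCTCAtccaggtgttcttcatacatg
Olfr113: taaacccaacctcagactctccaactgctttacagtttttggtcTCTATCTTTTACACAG
Olfr127: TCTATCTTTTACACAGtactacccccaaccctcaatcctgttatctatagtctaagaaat
Olfr441: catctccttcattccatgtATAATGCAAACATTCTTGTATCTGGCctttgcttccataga
Olfr444: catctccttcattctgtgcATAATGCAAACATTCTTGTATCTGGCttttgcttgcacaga
Olfr279, bright probe: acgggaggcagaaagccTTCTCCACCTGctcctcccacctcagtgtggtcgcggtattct
Olfr279, dim probe: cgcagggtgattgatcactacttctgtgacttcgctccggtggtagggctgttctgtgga

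In the mm9 build, the positions are chr7:110058002-110058061 for Olfr571, chr17:37726523-37726582 for Olfr114, chr17:38089664-38089723 for Olfr761, chr7:110036344-110036403 for Olfr569 and chr17:37711529-37711588 for Olfr113, all on the minus strand. The plus strand holds Olfr127 at chr17:38041315-38041374, Olfr441 at chr6:43066012-43066071, Olfr444 at chr6:42905768-42905827 and the Olfr279 probes at chr15:98328602-98328661 (bright) and chr15:98328418-98328477 (dim). RefSeq gene models (GRCm38.p6) of these 9 receptors have lengths under 1100 bases that are multiples of 3, the form of a coding exon without untranslated sequence. An mm9 annotation was not used here, so exons are not assigned further.

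The probes were compared with each other only, by their longest exact run in common, and not with whole receptor transcripts. For the 128 probes the longest run shared with a probe for another receptor gene had a median of 12 bases and ranged from 9 to 42 bases, and in 7 probes it was over 20 bases. The longest were 42 bases that Olfr1205 shared with Olfr1206 (detected on 2 arrays) and 40 that Olfr536 shared with Olfr530 (4 arrays). Olfr175-ps1 shared 26 bases with Olfr177 (2 arrays). For Olfr441, Olfr53, Olfr456 and Olfr23 the other probe was detected on 0 arrays. Olfr441 and Olfr444 carry the same base at 54 of 60 probe positions, with a shared run of 26 bases. The Olfr441 probe gave 109.6, 115.1 and 166.1 intensity units in the WT mice and 142.6, 150.7 and 182.6 in the Prss54KO mice. The Olfr444 probe was not well above background on any array, at 6.4 to 26.1 units. Both Olfr113 and Olfr127, which share 16 bases, were detected on all arrays. Binding of one receptor's transcript to another receptor's probe was not tested.

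The receptor signals spanned a wide range in WT testis. The mean processed signal over the 3 WT mice ran from 44.7 to 2613 intensity units, with a median of 101.5. For 101 of the 128 probes it lay below 208.0, the median of all gene probes. The normalized scale is log2 signal minus the array's 75th percentile. On it, 26 probes (25 gene names) had a mean level over all 6 arrays, both genotypes, at or above -3. The other 102, below this limit, are called dim here. That limit was set after the values were seen. Signals of different probes depend on the probe as well as the transcript, so they give no order of transcript abundance.

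The highest signal belonged to Olfr571, a class I receptor on chromosome 7, with 2314, 2629 and 2896 units in WT replicates 1 to 3. In Prss54KO it was 3019, 2916 and 2906 units, all above the WT values. Olfr114 gave 1847, 1687 and 1954 units in WT and 1902, 2262 and 2034 in Prss54KO, and the groups overlapped. Olfr127 gave 1390, 1349 and 1621 units in WT and 1501, 1724 and 1608 in Prss54KO, again with overlap. Olfr112 gave 1344 ± 125 units (SD, n = 3) in the controls, against 1475 ± 129 (SD, n = 3) where Prss54 was disrupted. These last 3 genes lie in the receptor cluster beside the major histocompatibility complex on chromosome 17.

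Olfr279 on chromosome 15 gave 1107 ± 80.3 units (SD, n = 3) in WT from its bright probe. Olfr761, Olfr126 and Olfr124, also in the chromosome 17 cluster, gave 883 ± 49.4, 816 ± 29.0 and 748 ± 32.4 units (SD, n = 3). Olfr183 on chromosome 16 gave 827 ± 21.6 units, Olfr744 on chromosome 14 gave 770 ± 39.6 and the pseudogene Olfr175-ps1 on chromosome 16 gave 584 ± 66.9 (SD, n = 3). The brighter probe of Olfr1393, a receptor also studied in the kidney, gave 504 ± 34.1 (SD, n = 3). Of these 12 probes with the highest WT level, 6 lay in the chromosome 17 cluster. Olfr761 stood at 709 units in Prss54KO replicate 1 and at 843 to 978 in the other 5 mice.

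Detected receptors came from most of the family's clusters. With a gap of over 1 Mb starting a new cluster, the receptor probes formed 49 clusters, and 36 of them held at least 1 detected probe, on 16 chromosomes. The 13 clusters without one had at most 4 receptor probes each. No position was given for 4 receptor probes, none of them detected. How far the detected share varies between clusters was not tested, since probes are not replicates.

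The chromosome 17 cluster (mm9 chr17:37222226-38472904) held most of its members among the brighter ones. It had 40 receptor probes, of which 9 (22.5%) were detected on all arrays, and 8 of these 9 were among the 26 brighter probes. They were Olfr112, Olfr113, Olfr114, Olfr124, Olfr126, Olfr127, Olfr128 and Olfr761. Olfr113 gave 247 to 309 units in WT and 303 to 329 in Prss54KO, and Olfr128 gave 201 to 265 and 232 to 281. The ninth, Olfr103, was dim, at 81.0 units on average in WT.

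The class I cluster on chromosome 7 (mm9 chr7:109632942-112517423) held the most detected probes, 16 of 112 (14.3%). The 5 brighter ones were Olfr571, Olfr569, Olfr570, Olfr609 and Olfr549. Among them, Olfr569, Olfr570 and Olfr571, are direct neighbours by number, with probe starts at 110036344, 110049078 and 110058002. Olfr570 gave 221, 305 and 295 units in WT and 219, 413 and 229 in Prss54KO. The dim members were Olfr544, Olfr577, Olfr578, Olfr611, Olfr615, Olfr635, Olfr643, Olfr656, Olfr668, Olfr684 and Olfr691. The lowest mean WT signal among the 16 was 63.4 units.

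The largest cluster on the array, on chromosome 2 (mm9 chr2:85171954-90241494), had 15 of 187 probes detected (8.02%), all of them dim. They were Olfr74, Olfr1000, Olfr1009, Olfr1026, Olfr1048, Olfr1093, Olfr1131, Olfr1134, Olfr1143, Olfr1205, Olfr1215, Olfr1218, Olfr1225, Olfr1226 and Olfr1263. Their mean WT signals ran from 48.3 to 165 units. Shares in smaller clusters ran both ways. They were 2 of 48 probes (4.17%) in a cluster on chromosome 10 and 6 of 87 (6.90%) in one on chromosome 9, but 5 of 11 probes on chromosome 13 (Olfr1359 with both its probes, Olfr1362, Olfr1364 and Olfr1366) and 5 of 14 on chromosome 11 (Olfr1381, Olfr1383, Olfr1384 and both probes of Olfr1393).

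Repeat spots and second probes show how well these signals are measured. One Olfr166 probe was printed 10 times on each array, and all 10 spots were well above background on every array. Its spot median was 139, 155 and 170 units in the WT mice and 166, 177 and 186 in the Prss54KO mice, with an SD between spots of 0.07 to 0.24 on the log2 scale. The difference between genotypes for this probe was 0.15 (SE 0.09). The other 127 member probes had a single spot per array. A repeated probe for Olfr1307, at 34.7 to 53.2 units, passed the mark on 2 to 10 of its 10 spots depending on the array and was not a member.

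Of 9 detected receptor genes with another receptor probe on the array, 5 had both probes detected on all arrays: Olfr166, Olfr701, Olfr1359, Olfr1372-ps1 and Olfr1393. The other 4, Olfr279, Olfr175-ps1, Olfr1497 and Olfr456, each had a probe that did not pass. The mean levels of a gene's probes differed by a median of 0.78 on the log2 scale and by up to 6.02. That largest gap was in Olfr279. Its bright probe read 1090, 1037 and 1195 units in WT, and its dim probe, 184 bases upstream on the same strand, read 13.0, 6.7 and 37.0.

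The second Olfr175-ps1 probe read 6.2 to 7.4 units in WT, and that of Olfr1497 was detected on 0 arrays. For these genes the array gives no single answer on whether the transcript is present. The 2 Olfr1359 probes overlap in sequence position and gave mean levels 0.04 apart. Their Prss54KO minus WT differences had opposite signs, -0.09 (SE 0.21) and 0.16 (SE 0.12). Those of the Olfr1393 probes did too, at 0.11 (SE 0.05) and -0.14 (SE 0.22). In Olfr166, Olfr701 and Olfr1372-ps1 both probes had the same sign.

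Among 10 receptor genes with roles studied outside the nose, 3 were members, namely Olfr544, Olfr691 and Olfr1393, while 13.4% of all receptor gene names were. Olfr544, a receptor for azelaic acid, gave 161, 271 and 187 units in WT and 183, 185 and 224 in Prss54KO. Olfr691, a class I receptor, gave 73.9, 97.8 and 106 units in WT and 89.8, 99.2 and 127 in Prss54KO. Both sets overlapped between genotypes.

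Olfr16 (also known as mOR23), a receptor studied in mouse sperm, was not well above background on any array, at 4.97 to 10.02 units. The same held for Olfr2 (8.2 to 29.2 units), Olfr78 (14.4 to 27.8), Olfr90, Olfr99 and Olfr558. Olfr15 passed on 3 of 6 arrays, at 16.4 to 37.3 units. A probe below the mark gives only a bound and does not show that the transcript is absent.

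The parts of the odour signalling chain were present in part. Of 24 odour transduction genes listed, 22 were on the array and 17 had a probe detected on all arrays, and of genes linked to receptor gene choice 15 of 16 did. Most of these genes are also used by other tissues. By probe, 65.0% of all gene probes were detected on all arrays, and the share by gene among all genes was not counted. Of 9 genes on the array that were listed as markers of olfactory sensory neurons, 3 had a probe on all arrays. They were Cnga2 (106 to 118 units in WT), Gng13 (298 to 313) and Gnal, with 1 of 5 probes (419 to 533).

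The olfactory marker protein Omp passed on 3 of 6 arrays, at 32.3 to 56.4 units. Adcy3 passed on 3 arrays with 1 probe and on 2 with the other. Rtp1, a chaperone that carries receptors to the cell surface, passed on 1 array, Rtp2 on 0 and the neuronal growth protein Gap43 on 0. The summed signal of all 15 marker probes was 1114 to 1271 units in WT and 1042 to 1148 in Prss54KO. The marker lists for the labelled tissue were detected: all 10 spermatid, 8 of 8 spermatocyte and 7 of 8 Sertoli cell genes had a probe on all arrays. Of 5 epididymis markers, Crisp1, Lcn5 and Lcn8 were on 0 arrays. Rnase10 (378 to 430 units in WT, 424 to 485 in Prss54KO) and 1 of 2 probes of Lcn9 (41.9 to 91.2 and 80.6 to 99.7) were on all 6. The summed signal of the 6 epididymis probes was 458 to 561 units in WT and 542 to 622 in Prss54KO, and its part in the receptor values was not tested.

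Other chemosensory receptor families gave detected shares of their own. Of vomeronasal type 1 receptor probes 19 of 115 (16.5%) were detected on all arrays, and of vomeronasal type 2 probes 14 of 31 (45.2%). Trace amine-associated receptors had 0 of 4 and formyl peptide receptors 0 of 5. Taste receptors of type 1 (Tas1r) had 2 of 3 and bitter taste receptors (Tas2r) 1 of 13.

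Detected receptor probes differed from undetected ones in base composition. Their median GC content was 45%, against 38.3% for the 617 receptor probes detected on 0 arrays and 41.7% for probes of other genes on all arrays. The 26 brighter and the 102 dim probes had the same median. The nearest probe of another gene family detected on all arrays lay a median of 105 kb away for the detected receptors and 194 kb for the undetected. Within 50 kb there was one for 25% of the detected and 16.3% of the undetected. Probes of a cluster share neighbours, so these shares are given with no test.

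The mice lacking Prss54 were compared with WT to find which testis transcripts depend on it. Prss54 itself, read by 1 probe, gave 22677, 24152 and 26120 units in WT and 7381, 9466 and 8416 in Prss54KO, a log2 difference of -1.56 (SE 0.10, limma adjusted p = 0.116). The genotypes did not overlap. Whether the probe lies inside the disrupted part of the gene is not given. In bulk tissue, fewer cells of a type and less RNA per cell cannot be told apart.

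No receptor probe passed the threshold between genotypes. Of 128 members, 0 had a limma adjusted p under 0.05, as for all 28913 probes tested, of which 0.0% were called. At an unadjusted p under 0.05 there were 19 members (14.8%) against 3.21% of all probes. Of these, 14 were higher in Prss54KO (10.9%, against 1.76% of all probes) and 5 lower (3.91%, against 1.46%). In 17 members the Prss54KO mice all lay above the WT mice (13.3%, against 4.32%) and in 4 all below (3.12%, against 3.56%).

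The members as a group sat a little higher in Prss54KO. The median difference was 0.16 on the log2 scale, against 0.01 for all probes tested, and 100 of 128 were above 0 (78.1%, against 53.4%). Receptor probes detected on 3 to 5 arrays (n = 61) had a median of 0.14, and vomeronasal type 1 and type 2 probes on all arrays (n = 19 and n = 14) had 0.18 and 0.02. The level of the members also differed between slides, and slide and genotype are in part confounded. The median deviation of the 128 probes from their own mean was -0.23 and -0.12 on the WT arrays of slide 3. On slide 2 it was 0.08 for WT and 0.03 and 0.10 for Prss54KO, and on slide 1 0.15.

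On slide 2, the only one with both genotypes, the median difference was -0.02, and 57 of 128 members were above 0 (44.5%, against 50.5% of all probes). The WT mouse of slide 2 was above the WT mean of slide 3 in 100 of 128 members (78.1%, against 51.7%), by a median of 0.27. Both medians rest on WT replicate 3, the only WT mouse of slide 2. A difference between slides and a difference of that mouse cannot be told apart. With the slide as a block the count at an unadjusted p under 0.05 was 7 of 128 members, against 4.38% of all probes. On slide 2 alone the count was 8 of 128 members, against 3.96% of all probes. Without 1 WT mouse the count of 19 became 10 (replicate 1), 6 (replicate 2) or 52 (replicate 3). The shares of all probes in these fits were 2.0%, 2.66% and 6.21%. Without 1 Prss54KO mouse the count became 21 (replicate 1), 7 (replicate 2) or 9 (replicate 3). For these fits the shares of all probes were 4.45%, 2.98% and 3.51%. The 102 dim probes gave a median difference of 0.21 over all arrays and -0.05 on slide 2, and the 26 brighter ones 0.12 and 0.05.

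Dim probes of other genes with a high GC content also lay lowest on slide 3. Those with 50 to 60% GC (n = 1017) had median deviations of -0.11 and -0.08 on slide 3, 0.07, 0.01 and 0.01 on slide 2 and 0.11 on slide 1. Those with 35 to 40% GC (n = 2297) had 0.01 and 0.04, then -0.04, -0.03 and -0.02, then 0.05. Dim receptor probes with 35 to 40% GC (n = 16) had -0.21 and -0.13 on slide 3 and 0.03, 0.04 and 0.12 on slide 2. On slide 3, those with 40 to 45% GC (n = 33) had -0.27 and -0.13, against -0.02 and 0.0036 for dim probes of other genes. With 45 to 50% GC (n = 32) they had -0.32 and -0.16, against -0.07 and -0.03. With 50 to 60% GC (n = 21) the dim receptor probes had -0.27 and -0.08. The part of GC content in the receptor shift was not tested.

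The 5 receptors in each direction with the smallest p were all dim ones by their mean level over both genotypes. In WT alone, Olfr522 and Olfr1444, both lower in Prss54KO, were above the limit of -3, at -2.84 and -2.89. Olfr1364, on chromosome 13, gave 39.8, 46.9 and 49.5 units in WT and 60.5, 66.6 and 63.4 in Prss54KO, with no overlap. Its difference was 0.46 (SE 0.09, 95% interval 0.24 to 0.68, limma unadjusted p = 0.0019, adjusted p = 0.9998), and on slide 2 it was 0.40. Olfr1276 on chromosome 2 gave 36.9, 42.4 and 62.4 units in WT and 79.4, 78.4 and 70.0 in Prss54KO, a difference of 0.69 (SE 0.18) that was 0.37 on slide 2.

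Olfr1048 gave 120, 112 and 120 units in WT and 132, 131 and 137 in Prss54KO, a difference of 0.16 (SE 0.05) over all arrays and 0.17 on slide 2. Olfr1226 and Olfr1093 had differences of 0.31 and 0.50 over all arrays and 0.09 and 0.03 on slide 2. For both, the WT mouse on slide 2 lay near the Prss54KO mice. Olfr1226 was at 196 units in that mouse, against 142 and 156 in the other WT mice and 203 to 210 in Prss54KO.

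Among the lower ones, Olfr398 on chromosome 11 gave 139, 200 and 164 units in WT and 127, 95.9 and 124 in Prss54KO, a difference of -0.56 (SE 0.17) and of -0.53 on slide 2. Olfr319 gave 76.1, 125 and 132 units in WT and 72.5, 55.0 and 73.0 in Prss54KO, a difference of -0.73 (SE 0.23) and of -1.02 on slide 2. Olfr74 gave 71.2, 131 and 137 units in WT and 67.7, 58.0 and 75.7 in Prss54KO, with 1 WT mouse inside the Prss54KO range, a difference of -0.73 (SE 0.26). Olfr1444 and Olfr522 had differences of -0.25 (SE 0.10) and -0.38 (SE 0.15). All 14 higher and all 5 lower members with an unadjusted p under 0.05 kept their sign on slide 2. Its 3 arrays also entered the comparison that picked these members, so the kept sign is no separate evidence. On slide 2 the higher ones had differences from 0.0024 (Olfr930) to 0.40 (Olfr1364). The lower ones had -0.335 (Olfr1444) to -1.09 (Olfr74).

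The receptors with the highest signals gave small differences. Olfr571 had a difference of 0.15 (95% interval -0.04 to 0.34), Olfr114 of 0.15 (-0.06 to 0.35), Olfr279 of 0.12 (-0.02 to 0.26) and Olfr126 of -0.01 (-0.18 to 0.16). These intervals hold 0, which does not show that the levels were equal. The median SE was 0.10 for the 26 brighter probes and 0.16 for the 102 dim ones.

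In the odour transduction list, 0 of 33 probes tested passed the adjusted threshold and 3 had an unadjusted p under 0.05, all higher, against 3.21% of all probes in either direction and 1.76% higher. They come from 2 genes: both probes of Cngb1, the beta subunit of cyclic nucleotide-gated channels of rods and of olfactory neurons, and 1 probe of Adrbk2. The brighter Cngb1 probe gave 2229, 2194 and 2250 units in WT and 3799, 4146 and 3976 in Prss54KO, a difference of 0.81 (SE 0.06, limma adjusted p = 0.116) and of 0.86 on slide 2. The other gave 99.6 to 114 units in WT and 187 to 214 in Prss54KO, a difference of 0.92 (SE 0.10). How near Cngb1 lies to Prss54 was not examined. The part of the mixed strain background in these Cngb1 differences was not tested. Adrbk2, a receptor kinase, gave 0.24 (SE 0.09), and Slc24a4, a sodium calcium exchanger, 0.23 (SE 0.12). The receptor gene choice list had 0 of 26 probes at an adjusted or unadjusted limma p under 0.05, against the same 3.21% of all probes unadjusted.

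Some receptors were far apart in 1 mouse. In 9 members (7.03%) a single array lay over 1 log2 unit from the median of the other 5, against 0.931% of all probes detected on all arrays and 2.99% of dim probes of other genes. The limit of 1 was set after the values were seen. Olfr569 gave 716, 673 and 167 units in WT and 823, 890 and 488 in Prss54KO, so WT replicate 3 was low by 2.18. Its difference between genotypes was 0.69 (SE 0.62) with that mouse and -0.03 without it. On slide 2, where that mouse is the only WT one, the difference was 2.39, and with the slide as a block its limma adjusted p was 0.0692. The adjacent Olfr570 and Olfr571 gave 295 and 2896 units in that mouse, within or above the range of the other WT mice.

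Olfr868 was high in WT replicate 1, at 269 units against 59.3 to 80.4 in the other mice, and its difference of -0.83 became -0.21 without it. Olfr706 was high in Prss54KO replicate 2, at 354 units against 81.0 to 129, and its difference of 0.76 became 0.17 without it. Olfr12 was high in Prss54KO replicate 1, at 244 units against 56.6 to 116, with a difference of 0.85, the largest of any member, that became 0.46. Olfr24 and Olfr635 were low in WT replicate 1, Olfr521 in WT replicate 2 and Olfr1509 in Prss54KO replicate 3, where Olfr1366 was high. The difference of Olfr1509 went from 0.20 to 0.67 without that mouse. Each of these probes had a single spot per array, so a fault of 1 spot and a difference of 1 mouse cannot be told apart.

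The edge of the rule was not sharp. Just inside were Olfr1276, at 36.9 units in its lowest mouse, Olfr536 at 37.4 and Olfr1358 at 37.6. Just outside, detected on 5 of 6 arrays, were Olfr1395 at 33.3 units in its lowest mouse, Olfr508 at 34.7 and Olfr1537 at 35.4. The count of receptor probes detected on an array ran from 146 on Prss54KO replicate 1 to 300 on Prss54KO replicate 3, the arrays with the lowest (66.2%) and the highest (74.8%) share of all gene spots well above background. At least 3 arrays detected 189 receptor probes.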

How the data were processed

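Probe intensity came from the deposited scanner files, which per the file headers were written by Agilent Feature Extraction 10.7.3.1 (10.7 per the submitters' processing notes), with probe positions in mm9. The authors' deposited table of log2 values, quantile normalized, was an alternative input (software not given in the sources used here). Cy3 labelling started from 0.5 ug of RNA for each mouse, per the labels. Gene symbols follow the array design and can be old, and 121 of 123 matched RefSeq (GRCm38.p6) by symbol.

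Each level is the log2 processed signal, less the 75th percentile over its array. Spots of a probe were averaged without outlier-marked spots, and a probe counted as detected on an array where at least 1 of every 2 spots was well above background. The number of arrays limits the precision. Genotypes were compared with limma 3.58.1 (R 4.3.3; lmFit, eBayes, two-sided) over the 28913 probes detected on at least 3 arrays, with Benjamini-Hochberg adjustment and a threshold of 0.05. With 3 mice against 3, an exact permutation p cannot go below 0.1.

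The members and gene lists were chosen with earlier results of these data known. Probes named are the 12 with the highest WT level, the 5 per direction with the smallest p, the members of the 3 clusters with most members, receptors studied outside the nose, genes with several member probes, those at the edge of the rule, and odour transduction genes with the smallest p; others were chosen after their values were seen. Alternatives were scaling, background correction, filter, brightest probe per gene, slide, replicate block, variance model, array weights and leaving out each array.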

Additional observations from a re-analysis of the deposited data

How the results depend on the processing

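In each of 19 alternative fits, 0 members passed an adjusted p of 0.05 in limma, and the smallest adjusted p of a member lay between 0.0692 (Olfr569, slide as a fixed block) and 1.0. The count of members at an unadjusted p under 0.05, 19 in the chosen fit, was 9 without a filter on low probes, 7 with the slide as a fixed block, 8 on slide 2 alone, 10 with the slide as a random block and 33 with array weights. Among all probes the share at that p was 3.21% in the chosen fit and 4.07% without a filter. It was 4.38% with the slide as a fixed block, 2.84% as a random block and 4.86% with array weights. Leaving out each array in turn gave 6 to 52 members, against 2.0% to 6.21% of all probes. The replicate numbers did not pair the mice (correlations of same-numbered mice of -0.04, 0.02 and -0.15). A replicate block gave 31 members, against 3.92% of all probes. The median member difference turned from 0.16 to -0.0229 with the slide as a fixed block and on slide 2 alone, and lay between 0.11 and 0.23 in the other fits. Of 22 members named by level or p, 3 changed sign in some fit (Olfr126, Olfr183 and Olfr761), none of them past the threshold. With an intensity trend and robust variance, 1 probe of the odour transduction and gene choice lists passed, for Cngb1. These fits of the lists were chosen after seeing the data. The looser mark of a positive and significant signal on all arrays gave 303 receptor probes in place of 128. Leaving out an array gave 128 to 145. Clusters with a detected probe numbered 37 with a gap of 0.5 Mb and 33 with 2 Mb. The cause of these changes was not tested.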
